A study of Mus musculus with 12 samples.

Results

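TCRBV14-01, TCRBV15-01, TCRBV16-01 and TCRBV17-01 are 4 single-copy V genes that lie next to each other in the mouse TCRβ locus and are called Trbv14, Trbv15, Trbv16 and Trbv17 in RefSeq. All rearrangements whose V gene was named as one of them were taken, 46989 of the 288925 in 12 libraries. TCRBV14-01 had 10532 of them, TCRBV15-01 10598, TCRBV16-01 17989 and TCRBV17-01 7870. The files name 35 V genes in all. The libraries were made from genomic DNA of CD8 T cells of female C57BL/6 mice that carried MC38 tumors, a mouse colon carcinoma line, and received anti-CTLA-4 Ab and anti-PD-L1 Ab, and there was no untreated group. The spleen gave sorted CD27lo CX3CR1-, CD27hi CX3CR1- and CX3CR1+ cells (CX3CR1 low and high in the labels), and the tumor gave CD8 TILs, which were obtained by CD8a positive selection rather than by sorting. Each of the 4 groups had 1 library per experiment. The 3 experiments are written A, B and C, following codes shared by the sample titles. Each experiment used several mice, whose cells are assumed to be combined in each library. The DNA holds only TCRβ rearrangements, so the labelled cell types could not be checked against marker genes.

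A TCRβ chain is built in the thymus when 1 V, 1 D and 1 J gene are joined, with bases trimmed from the gene ends and random N bases added between them. The joined stretch encodes the CDR3, the loop that touches the peptide on an MHC molecule, while the V gene encodes the loops that lie mainly over the MHC. A joint that leaves the reading frame makes no receptor and is kept only as a passenger in a T cell that made a working chain from its other allele. Out-of-frame rearrangements (Out) therefore show how often a V gene is joined, and productive ones (In) show that together with selection of the receptor. In an older naming the 4 genes are Vβ13, Vβ12, Vβ11 and Vβ9. C57BL/6 mice lack I-E, the MHC class II molecule through which endogenous superantigens delete Vβ11 and other families in many other strains.

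On chromosome 6 of GRCm38.p6, Trbv14 spans 41135167 to 41135616, Trbv15 41141211 to 41141658, Trbv16 41151791 to 41152230 and Trbv17 41163092 to 41163556. RefSeq lists all 4 as V segments, with 5594, 10132 and 10861 bp between consecutive genes. Trbv13-3 is the neighbour before Trbv14, and the pseudogene Trbv18 and then Trbv19 follow Trbv17. The 3′ ends of the genes are shown because every CDR3 below starts in them. Each is the commonest V part of Out rearrangements from which no V base had been trimmed, with the CDR3 bases in capitals, the first 3 of which encode the conserved cysteine.
TCRBV14-01: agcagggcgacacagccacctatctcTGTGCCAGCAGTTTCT
TCRBV15-01: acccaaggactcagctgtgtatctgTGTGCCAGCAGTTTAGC
TCRBV16-01: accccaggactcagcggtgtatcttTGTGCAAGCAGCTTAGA
TCRBV17-01: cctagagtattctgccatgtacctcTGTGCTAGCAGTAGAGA
Of the untrimmed Out rearrangements, between 94.2% (TCRBV14-01, 113 of 120) and 97.0% (TCRBV17-01, 425 of 438) carried the end shown. In their own frame these ends read CASSF, CASSL, CASSL and CASSR in gene order. From 25 bases before the CDR3 to 16 bases into it, TCRBV15-01 and TCRBV16-01 had 36 of 41 bases in common, and every other pair had 24 to 27.

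Depth differed between the libraries. Productive templates, the deposited estimate of the number of cells, ranged from 5893 (TILs, experiment A) to 113660 (CX3CR1+, experiment C), unique productive rearrangements from 1359 to 54639 and unique Out rearrangements from 627 to 21134. The 4 genes together supplied 206 to 9249 of a library's unique productive rearrangements. TIL shares are thus the least precise, and intervals are Wilson 95% intervals that cover counting error only.

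Among unique productive rearrangements, where each sequence counts once however large its clone, the 4 genes took similar shares in all 4 groups. TCRBV16-01 was the most used, at 6.79% ± 0.03 in CD27hi CX3CR1- cells (SD, n = 3), and it ranked between 4 and 10 of 32 V genes in every library. TCRBV14-01 followed at 4.34% ± 0.11, TCRBV15-01 at 3.07% ± 0.07 and TCRBV17-01 at 2.70% ± 0.08 in the same cells. The 3 CD27hi libraries of any 1 gene did not overlap with those of another. In the TILs the order of TCRBV14-01, TCRBV15-01 and TCRBV17-01 was not kept, since in experiment A TCRBV15-01 (3.68%) was above TCRBV14-01 (3.09%).

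For TCRBV14-01, the unique productive shares in experiments A, B and C were 4.06%, 4.56% and 3.93% in CD27lo CX3CR1- cells, 4.23%, 4.45% and 4.34% in CD27hi CX3CR1- cells, 3.48%, 4.19% and 4.11% in CX3CR1+ cells, and 3.09%, 3.29% and 4.33% in TILs. The lowest 2 values were those of TILs in experiments A and B, with 42 and 51 rearrangements behind them, but the third TIL library lay among the CX3CR1- ones. For TCRBV15-01 the same shares were 2.98%, 2.75% and 3.18%, then 3.00%, 3.05% and 3.14%, then 3.12%, 2.83% and 2.87%, and in TILs 3.68%, 3.42% and 2.39%. Its highest and its lowest value were both TIL libraries, and the splenic groups overlapped. For TCRBV16-01 they were 6.40%, 6.60% and 6.74%, then 6.82%, 6.76% and 6.79%, then 6.61%, 6.44% and 6.44%, and in TILs 5.89%, 7.04% and 5.38%. For TCRBV17-01 they were 2.39%, 2.52% and 2.56%, then 2.80%, 2.65% and 2.66%, then 2.80%, 2.67% and 2.84%, and in TILs 2.50%, 2.52% and 2.81%. No CX3CR1+ or TIL group of the 4 genes lay wholly above or wholly below the 6 CX3CR1- libraries. Of all 24 V genes tested, 4.17% lay wholly below and 8.33% wholly above in CX3CR1+ cells, and 8.33% in each direction in TILs.

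**Figure D1:**
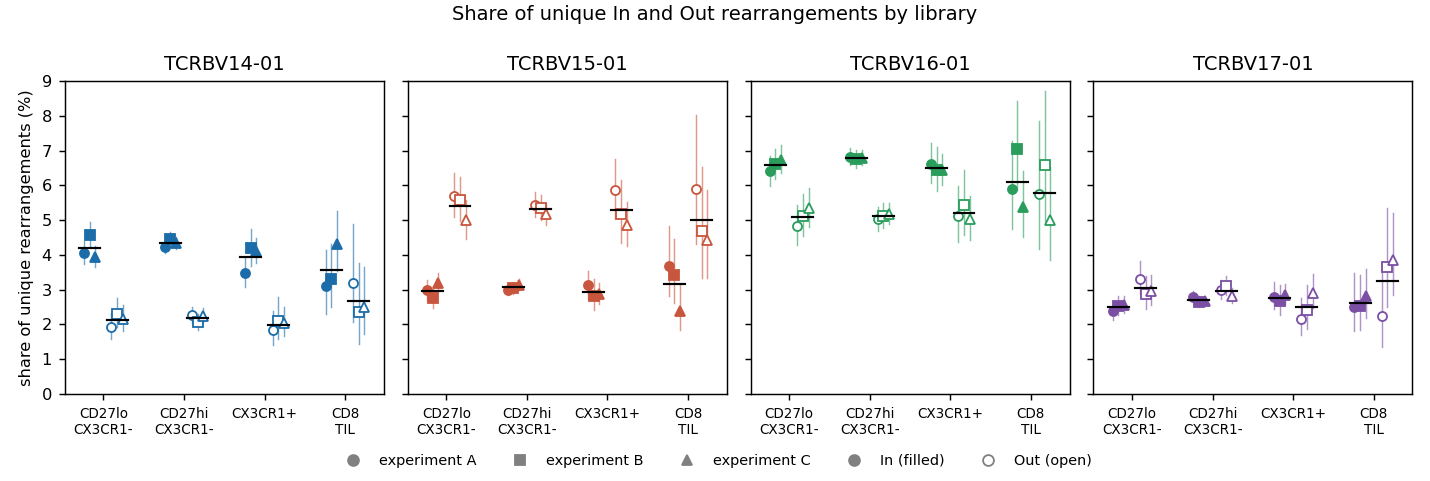
Share of unique rearrangements (%, linear axis) that used each gene, by group, for In (filled) and Out (open) rearrangements. Points are libraries with Wilson 95% intervals, marker shapes are experiments and black lines are means of 3. TCRBV14-01 lies higher in In than in Out and TCRBV15-01 lower in every splenic library, and the TIL points have the widest intervals.

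Did the groups differ in the use of these genes? With edgeR's quasi-likelihood test over 24 V genes and the experiment as a block, none of the 4 passed an adjusted p of 0.05 in CX3CR1+ against CX3CR1- cells, where 4.17% of V genes did. None passed in TILs against CX3CR1- cells (12.5% of V genes), in TILs against CX3CR1+ cells (4.17%) or in CD27lo against CD27hi cells (0%, with 2 of 24 V genes at an unadjusted p under 0.05). In CX3CR1+ against CX3CR1- cells the log2 differences were -0.11 ± 0.06 (SE) for TCRBV14-01, -0.05 ± 0.08 for TCRBV15-01, -0.04 ± 0.05 for TCRBV16-01 and 0.10 ± 0.07 for TCRBV17-01. Their 95% intervals lay between -0.23 and 0.24, so larger changes in breadth were not seen at this depth. In TILs against CX3CR1- cells the intervals were wider, between -0.47 and 0.31. TCRBV14-01 was at -0.21 ± 0.13 there (edgeR adjusted p = 0.28) and passed without experiment C (log2 -0.44, edgeR adjusted p = 0.043) and over rearrangements with at least 2 templates (log2 -0.53, edgeR adjusted p = 0.023).

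Out rearrangements gave no call either. Over 25 V genes, 0% passed in each of the 4 contrasts, with 1, 3, 0 and 1 genes at an unadjusted p under 0.05 in the order above, and the 4 genes had log2 differences between -0.23 and 0.41. The lowest unadjusted p among them was 0.057, for TCRBV17-01 in CX3CR1+ against CX3CR1- cells (edgeR adjusted p = 0.71). Its Out shares in CX3CR1+ cells were 2.17%, 2.41% and 2.91%, from 64, 55 and 132 rearrangements.

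For TCRBV14-01, TCRBV15-01 and TCRBV16-01 the difference between In and Out was larger than any of their differences between groups above. For TCRBV17-01 it was not. TCRBV14-01 took 4.12%, 4.44% and 4.25% of unique productive rearrangements in experiments A, B and C (all libraries of an experiment joined) and 2.17%, 2.12% and 2.24% of Out ones. TCRBV15-01 ran the other way, at 3.05%, 2.99% and 3.13% of In and 5.52%, 5.39% and 5.09% of Out. In both genes the 3 In values and the 3 Out values lay far apart. TCRBV16-01 was at 6.73%, 6.71% and 6.73% of In and 4.97%, 5.19% and 5.19% of Out. TCRBV17-01 was at 2.70%, 2.60% and 2.65% of In and 2.95%, 2.99% and 2.88% of Out, the smallest gap of the 4.

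In edgeR over 26 V genes, all 4 passed, as did 96.2% of the V genes tested, so that passing sets none of them apart. The log2 ratio of In to Out was 0.97 ± 0.04 for TCRBV14-01 (SE, n = 3 experiments, adjusted p = 3.3e-29), the highest of the 26, and 0.39 ± 0.03 for TCRBV16-01, which ranked 7. It was -0.79 ± 0.03 for TCRBV15-01, which ranked 19, and -0.15 ± 0.04 for TCRBV17-01, which ranked 12. The median over the 26 was -0.24. For TCRBV17-01 the sign depended on the scaling: TMM gave 0.033 and DESeq2 0.070, both short of the threshold. The other 3 kept their sign and passed under TMM, under DESeq2, without each experiment, in CD27hi CX3CR1- cells alone and with stop-codon rearrangements added to Out.

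**Figure D2:**
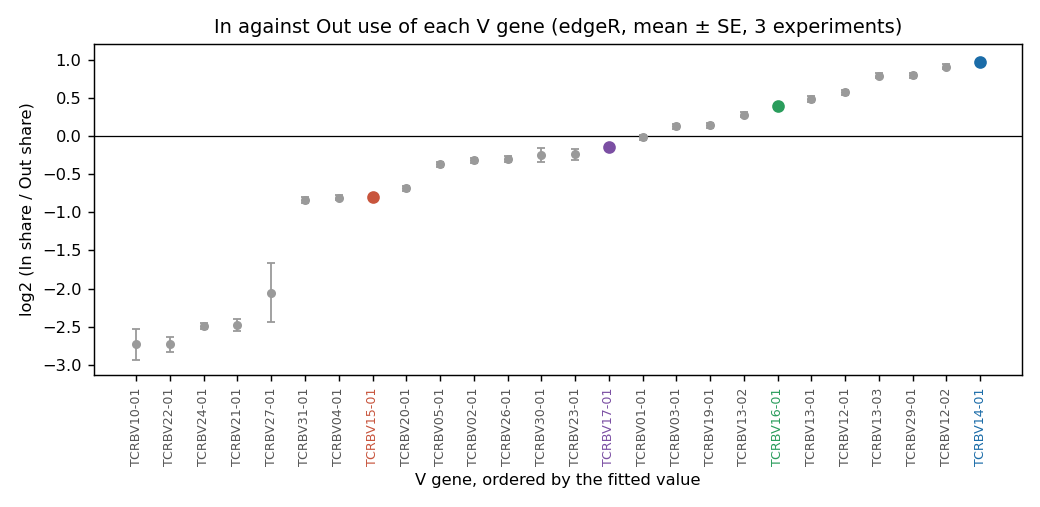
Fitted log2 ratio of In share to Out share for 26 V genes, ordered from lowest to highest, with edgeR standard errors. TCRBV14-01 (blue) is the highest at 0.97, TCRBV16-01 (green) is above 0, TCRBV17-01 (purple) is just below 0 and TCRBV15-01 (red) is at -0.79.

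Seen from each gene, 82.9% ± 0.86 of the unique TCRBV14-01 rearrangements of an experiment were productive (SD, n = 3), against 70.8% ± 0.22 of those of all other V genes together. The value was 76.7% ± 0.58 for TCRBV16-01 and 69.5% ± 0.66 for TCRBV17-01. For TCRBV15-01 it was 58.9% ± 1.39. TCRBV15-01 and TCRBV16-01, whose ends are the most alike of any pair, thus differed by more than the spread between experiments.

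By library, the In to Out ratio of shares was below 1 in 12 of 12 libraries for TCRBV15-01 (0.494 to 0.730) and above 1 in 12 of 12 for TCRBV16-01 (1.03 to 1.36). It was above 1 in 11 of 12 for TCRBV14-01 (0.969 to 2.15), and in 3 of 12 for TCRBV17-01 (0.688 to 1.29). Between CX3CR1+ and CX3CR1- cells of the spleen the log2 ratio differed by -0.0073 for TCRBV14-01, -0.016 for TCRBV15-01 and -0.065 for TCRBV16-01. For TCRBV17-01 it was 0.38 higher in CX3CR1+ cells, in 3 of 3 experiments (two-sided exact permutation within experiments, p = 0.037, the smallest that 27 arrangements allow, adjusted p = 0.54). This was 1 of the 22 V genes (4.55%) at that p, and 0% passed after adjustment. In TILs the log2 ratio was 0.41 ± 0.42 for TCRBV14-01 and 0.08 ± 0.04 for TCRBV16-01 (SD, n = 3), against 0.99 ± 0.11 and 0.41 ± 0.03 in CD27hi CX3CR1- cells. Both were lower in TILs than in CX3CR1- cells in 3 of 3 experiments, by a mean log2 difference of -0.57 and -0.31 (exact permutation within experiments, p = 0.037 each, adjusted p = 0.10). At that p there were 36.4% of the 22 V genes, and 0% passed after adjustment, so this does not set them apart. TCRBV15-01 was at 0.16 (exact permutation, adjusted p = 0.38) and TCRBV17-01 at -0.063 (exact permutation, adjusted p = 0.78). The comparison with TILs was added after the data were seen. The one TCRBV14-01 value below 1, in TILs of experiment A, rests on 42 In and 20 Out rearrangements.

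J genes are the other germline part of the CDR3, and they lie in a pair of clusters, J1 and J2. The J1 cluster was joined to 30.2% ± 0.65 of unique productive TCRBV14-01 rearrangements (SD, n = 3 experiments), 29.8% ± 0.28 of TCRBV15-01, 31.5% ± 0.51 of TCRBV16-01 and 28.3% ± 0.99 of TCRBV17-01. All other V genes together were at 35.6% ± 0.28, above each of the 4. In Out rearrangements the shares were 32.2% ± 2.32, 37.2% ± 1.25, 34.3% ± 0.74 and 32.3% ± 4.49 in gene order. These means were also below that of all other V genes (38.5% ± 0.57), but the spread of TCRBV15-01 overlapped with theirs. For productive rearrangements, 27 of the 56 pairs of these genes with 14 J genes differed from all other V genes, 14 of them upward. The test was edgeR over unions per experiment, adjusted over 336 pairs, and 41.4% of all pairs passed. Of the 27, TCRBV17-01 had 9, TCRBV15-01 7, TCRBV16-01 6 and TCRBV14-01 5.

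TCRBJ01-02 was low with all 4 genes. It made up 3.47% ± 0.54 of productive TCRBV14-01 rearrangements (SD, n = 3), 3.05% ± 0.17 of TCRBV15-01, 5.56% ± 0.68 of TCRBV16-01 and 4.06% ± 0.42 of TCRBV17-01, against 7.14% to 7.22% with the remaining V genes. The log2 differences were -1.06 ± 0.07, -1.25 ± 0.05, -0.39 ± 0.05 and -0.80 ± 0.08 (SE), all past the threshold. In Out rearrangements it made up 6.17%, 6.92%, 7.01% and 6.20% in the same order, and no pair passed there. V genes other than TCRBV14-01 were at 7.73%, 7.60% and 8.06% of Out in experiments A, B and C. The log2 differences in Out were -0.33 for TCRBV14-01, -0.16 for TCRBV15-01 and -0.33 for TCRBV17-01, in the same direction as in In but smaller. TCRBJ01-06 was low with 3 of the 4. It made up 1.17% ± 0.03 of TCRBV15-01, 1.10% ± 0.06 of TCRBV16-01 and 1.62% ± 0.50 of TCRBV17-01, against 2.79% to 2.88% with other V genes, which are log2 differences of -1.26 ± 0.06, -1.38 ± 0.07 and -0.82 ± 0.28. With TCRBV14-01 it was at 2.97% ± 0.37, a log2 difference of 0.10 ± 0.06 (edgeR adjusted p = 0.44). Among Out rearrangements TCRBJ01-06 made up 4.20% of TCRBV15-01, 3.80% of TCRBV16-01 and 3.49% of TCRBV17-01. V genes other than TCRBV15-01 were at 3.84%, 4.10% and 3.86% of Out in experiments A, B and C. The log2 differences in Out were 0.087, -0.067 and -0.19 in the same gene order, none past the threshold. The call for TCRBV17-01 with TCRBJ01-06 rests on 83 rearrangements and did not hold in every fit that left out 1 experiment (edgeR adjusted p from 8.9e-05 to 0.64).

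TCRBV17-01 with TCRBJ02-02 had the largest upward difference of the 27 pairs that passed. TCRBJ02-02 made up 9.23% ± 0.59 of productive TCRBV17-01 rearrangements (483 in all) and 5.52% ± 0.13 with the remaining V genes, a log2 difference of 0.73 ± 0.08 (edgeR adjusted p = 6.7e-07). In Out rearrangements it was at 6.10% ± 0.72 against 6.19% ± 0.12. The productive share was 8.79% ± 1.79 in CD27lo CX3CR1- cells, 9.38% ± 0.45 in CD27hi CX3CR1- cells, 11.8% ± 4.52 in CX3CR1+ cells and 11.7% ± 1.43 in TILs, and the lowest single library was at 6.82%. A CDR3 of 45 bases was found in 36.9% ± 3.33 of the productive TCRBV17-01 rearrangements with TCRBJ02-02 and in 23.6% ± 0.85 of those with other J genes. TCRBJ02-02 with other V genes was not compared for this length, so whether the difference is particular to this pair was not tested. Smaller upward differences were those of TCRBV17-01 with TCRBJ02-05 (0.26 ± 0.04), TCRBV15-01 with TCRBJ01-05 (0.26 ± 0.04) and TCRBJ02-07 (0.25 ± 0.04), and TCRBV14-01 with TCRBJ02-05 (0.20 ± 0.03). The remaining pairs named by the rule were TCRBV14-01 with TCRBJ02-02 (0.16) and TCRBJ01-05 (-0.35), and TCRBV16-01 with TCRBJ02-04 (0.20), TCRBJ02-05 (0.14) and TCRBJ01-05 (-0.42). Of these small differences, TCRBV14-01 and TCRBV17-01 with TCRBJ02-05 and TCRBV16-01 with TCRBJ01-05 passed in each fit without 1 experiment, and the others did not. In Out rearrangements 5 of the 56 pairs passed, where 15.2% of all pairs did. The difference between In and Out was past the threshold for 12 of the 56, where 20.2% of all pairs were, in a test added after the data were seen.

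**Figure D3:**
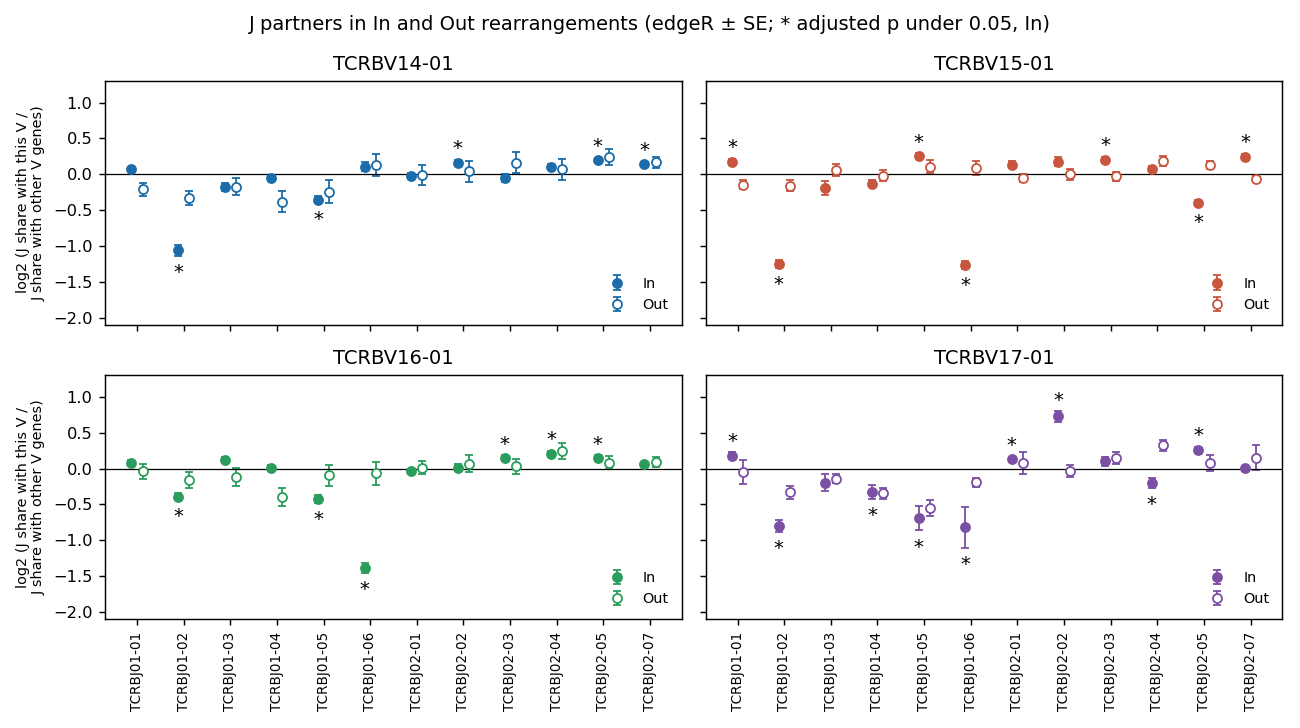
Log2 difference in the use of each J gene between each V gene and all other V genes, in In (filled) and Out (open) rearrangements, with edgeR standard errors and an asterisk where In passed the threshold (J genes with almost no rearrangements are left out). Low TCRBJ01-02 and TCRBJ01-06 and high TCRBJ02-02 with TCRBV17-01 stand away from 0 in In and lie nearer 0 in Out.

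The CDR3 was 41.1 ± 0.11 bases long on average for TCRBV14-01 (SD, n = 3 experiments), 41.3 ± 0.11 for TCRBV15-01, 42.4 ± 0.08 for TCRBV16-01 and 42.1 ± 0.08 for TCRBV17-01, over unique productive rearrangements, against 41.9 ± 0.02 for all other V genes. All 4 were longer in Out, at 41.6, 42.03, 43.1 and 42.3 bases, as were the other V genes together (42.5). TCRBV15-01 lost the most bases from its V end, 4.05 ± 0.01 on average against 2.53 ± 0.005 for the other V genes, and 3.92% of its productive rearrangements kept the whole end shown above. TCRBV16-01 kept it in 16.5% ± 0.41 and TCRBV17-01 in 15.4% ± 0.27. TCRBV14-01 kept it in 6.26% ± 0.42, and other V genes in 25.1% ± 0.13. In Out rearrangements TCRBV15-01 lost 4.22 ± 0.07 bases and TCRBV14-01 3.49 ± 0.11, against 3.15 ± 0.02 in In for the latter. The whole end was kept in a larger share of Out for TCRBV16-01 (23.0% ± 0.85) and TCRBV17-01 (19.5% ± 2.59), while the other V genes were at 25.6% ± 0.54. N bases numbered 3.41 to 3.63 per productive rearrangement in the 4 genes and 3.82 to 4.11 in Out, and 3.48 and 3.94 in the other V genes.

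CX3CR1+ cells differed little from CX3CR1- cells in CDR3 length. TCRBV15-01 was 0.20 bases longer in CX3CR1+ cells in 3 of 3 experiments and TCRBV16-01 0.20 bases shorter (exact permutation within experiments, two-sided, p = 0.037 each, adjusted p = 0.17). At that p there were 21.7% of the 23 V genes tested, and 0% passed after adjustment. TCRBV14-01 (-0.10 bases, exact permutation p = 0.22) and TCRBV17-01 (-0.09 bases, exact permutation p = 0.52) did not reach it. In TILs the means were 41.8, 41.6, 42.1 and 42.3 bases in gene order.

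Counting templates in place of unique sequences brings in the size of the clones. TCRBV14-01 held 4.005%, 4.50% and 4.14% of productive templates in CD27lo CX3CR1- cells and 4.21%, 4.46% and 4.83% in CD27hi CX3CR1- cells of experiments A, B and C. It held 2.54%, 2.60% and 3.03% in CX3CR1+ cells, below all 6 CX3CR1- libraries, and 5.67%, 3.43% and 1.45% in TILs, on both sides of them. TCRBV15-01 held 2.68% to 3.10% in the 6 CX3CR1- libraries. In CX3CR1+ cells it held 2.26%, 1.31% and 2.51% and in TILs 1.88%, 1.78% and 1.06%, so that both groups lay below them.

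TCRBV16-01 held 6.33% to 7.33% of templates in the 6 CX3CR1- libraries and 3.75%, 3.999% and 3.13% in CX3CR1+ cells. In TILs it ranged from 8.36% in experiment B and 6.70% in A to 1.44% in C. TCRBV17-01 was the one gene of the 4 that lay higher in TILs. It held 2.52%, 2.65% and 2.63% in CD27lo CX3CR1- cells, 2.93%, 2.76% and 2.75% in CD27hi CX3CR1- cells, 4.46%, 2.28% and 5.61% in CX3CR1+ cells, and 8.89%, 6.34% and 4.59% in TILs. All its TIL libraries were above the 6 CX3CR1- libraries, and the CX3CR1+ library of experiment B was below them.

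**Figure D4:**
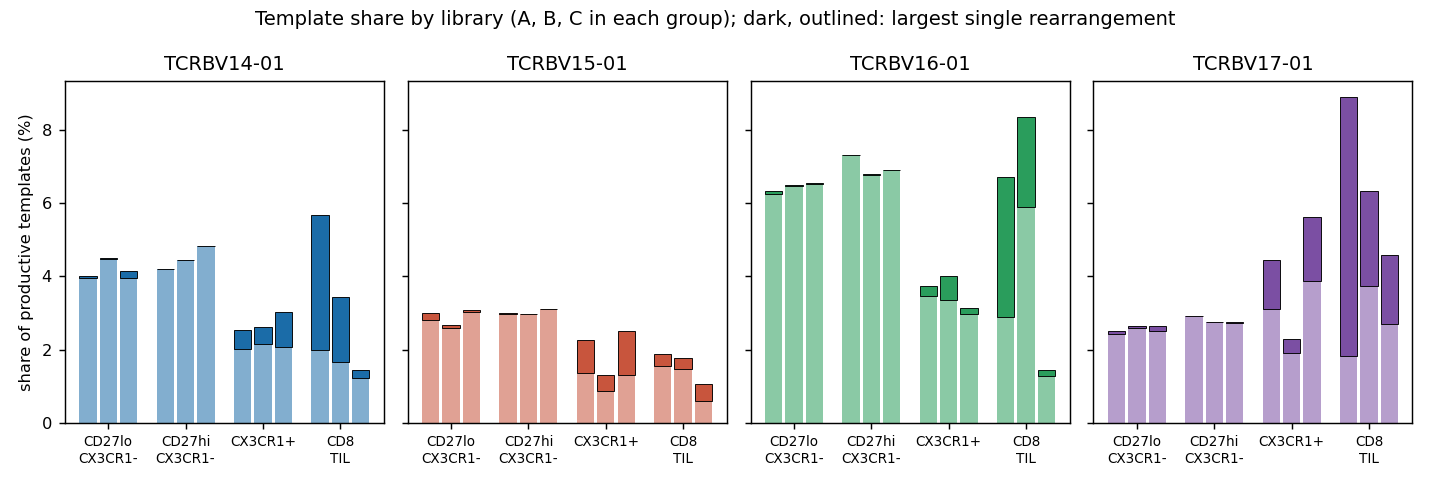
Share of productive templates (%, bars from 0) that used each gene, with 3 bars per group for experiments A, B and C; the dark outlined part is the most abundant single rearrangement of that gene. TCRBV17-01 reaches 8.89% in TILs of experiment A, of which 7.08 percentage points are 1 rearrangement.

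In edgeR on templates, TCRBV17-01 was the only one of the 4 to pass in TILs against CX3CR1- cells, where 16.7% of V genes did. Its log2 difference was 1.27 ± 0.32 (SE, adjusted p = 0.0057), higher in 3 of 3 experiments. The call was lost without experiment A (log2 1.03, edgeR adjusted p = 0.18). With the largest rearrangement of every V gene taken out, the difference was 0.74 (edgeR adjusted p = 0.037). That fit also drops large clones of other V genes, 1 of which held 13.6% of TIL templates in experiment A. With only its own largest rearrangement left out, TCRBV17-01 held 1.95% (experiment A), 3.84% (B) and 2.76% (C) of TIL templates. It then held 2.44% to 2.91% in the CX3CR1- libraries, so A lay below them, C among them and only B above. With all rearrangements kept, the exact permutation test within experiments gave p = 0.037, its smallest, and an adjusted p of 0.089. TCRBV15-01 was at -0.92 ± 0.39 (edgeR adjusted p = 0.084), TCRBV16-01 at -0.44 ± 0.36 and TCRBV14-01 at -0.38 ± 0.37. TCRBV17-01 was the 1 V gene of 24 (4.17%) whose TIL libraries all lay above the CX3CR1- ones, while those of TCRBV15-01 lay below, as for 33.3% of V genes.

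In CX3CR1+ against CX3CR1- cells no V gene passed on templates (0%, with 5 of 24 at an unadjusted p under 0.05; DESeq2 called 4 V genes). The log2 differences were -0.92 ± 0.36 for TCRBV16-01, -0.67 ± 0.36 for TCRBV14-01, -0.57 ± 0.38 for TCRBV15-01 and 0.57 ± 0.33 for TCRBV17-01 (edgeR adjusted p from 0.12 to 0.28). DESeq2 called TCRBV17-01 (log2 0.90, adjusted p = 0.016). The first 3 genes lay below all CX3CR1- libraries in 3 of 3 experiments, but so did 41.7% of V genes. The exact permutation test within experiments gave each of them p = 0.037, its smallest, and an adjusted p of 0.081, and 45.8% of V genes were at an unadjusted p under 0.05. The median V gene was at -0.38, and large clones of other V genes were present in these libraries. In experiment B, 1 rearrangement of another V gene alone held 17.5% of CX3CR1+ templates. A link between such clones and the shares of the 4 genes was not tested. In TILs against CX3CR1+ cells and in CD27lo against CD27hi cells none of the 4 passed, where 4.17% and 0% of V genes did.

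The mean number of templates per rearrangement, which a few large clones can raise, varied between the genes and was not tested. In CX3CR1+ cells a TCRBV17-01 rearrangement had 13.3 ± 5.95 templates on average (SD, n = 3), against 6.23 ± 0.95 for TCRBV14-01, 6.20 ± 2.28 for TCRBV15-01 and 4.97 ± 0.64 for TCRBV16-01, and 9.34 ± 1.11 for all other V genes. In TILs it had 17.1 ± 2.63, against 6.51 ± 2.84, 3.55 ± 1.15 and 5.67 ± 3.52, and 7.31 ± 3.23 for the other V genes. In CX3CR1- cells all 4 were between 1.27 and 1.47. Among the 100 most abundant rearrangements of a library, TCRBV17-01 had 7, 5 and 5 in CX3CR1+ cells and 4, 4 and 4 in TILs, against 5, 5 and 1 in CD27lo and 2, 3 and 1 in CD27hi CX3CR1- cells. Its TIL counts thus lay within those of CX3CR1- cells. TCRBV16-01 had 4, 4 and 1 in CX3CR1+ cells and 8, 9 and 1 in TILs, against 4 to 7 in the CX3CR1- libraries. TCRBV14-01 had 1 or 2 in each CX3CR1+ library and 2 to 4 in each TIL library, and TCRBV15-01 had 1 to 3 and 1 to 4.

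The largest clones are printed because their part in the template shares above varied widely. The largest clone held 5.09% of the gene's templates for TCRBV16-01 in CX3CR1+ cells of experiment C. For TCRBV17-01 in TILs of experiment A it held 79.6%. Only the largest clone of each gene in each CX3CR1+ and TIL library was considered. Those shown held at least 1% of a library's productive templates. Capitals mark the CDR3 bases within the read, which ends 1 codon before the CDR3 does. For TCRBV14-01 and TCRBV15-01 they were these.
TCRBV14-01 with TCRBJ02-01, TILs of experiment A: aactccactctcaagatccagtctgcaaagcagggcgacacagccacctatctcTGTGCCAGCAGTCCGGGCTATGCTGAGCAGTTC
TCRBV14-01 with TCRBJ01-03, TILs of experiment B: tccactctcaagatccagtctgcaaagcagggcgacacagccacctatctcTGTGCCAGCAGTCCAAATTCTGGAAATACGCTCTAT
TCRBV15-01 with TCRBJ02-01, CX3CR1+ cells of experiment C: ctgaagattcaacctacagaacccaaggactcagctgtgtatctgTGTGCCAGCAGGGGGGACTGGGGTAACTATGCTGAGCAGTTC
The first encodes the CDR3 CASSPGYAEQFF and held 3.68% of TIL templates in experiment A (interval 3.23% to 4.19%), 65.0% of all templates of the gene there. It held 0.533% in CX3CR1+ cells and 0.0218% in CD27lo CX3CR1- cells of that experiment, and was in no other experiment. The second, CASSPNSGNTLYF, held 1.78% of TIL templates in experiment B and 0.449% in CX3CR1+ cells. The TCRBV15-01 clone held 1.205% of CX3CR1+ templates in experiment C and 0.453% of TIL templates. In TILs of experiments A and B no TCRBV15-01 clone was above 0.339%, and the largest ones, with 20 and 37 templates, were in no splenic library of their experiment.

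TCRBV16-01 had a clone of this size in TILs of experiments A and B.
TCRBV16-01 with TCRBJ02-07, TILs of experiment A: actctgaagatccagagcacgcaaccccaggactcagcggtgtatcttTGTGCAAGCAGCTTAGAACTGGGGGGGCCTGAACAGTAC
TCRBV16-01 with TCRBJ02-07, TILs of experiment B: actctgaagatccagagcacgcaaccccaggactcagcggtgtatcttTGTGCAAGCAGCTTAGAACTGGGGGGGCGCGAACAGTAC
They encode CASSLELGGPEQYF and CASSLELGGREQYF, CDR3s of equal length from the same V and J gene, and both keep the whole V end. The first held 3.82% of TIL templates (225) and 0.131% of CX3CR1+ templates in experiment A, was in neither CX3CR1- library there, and the same nucleotide sequence was found in both other experiments as well. The second held 2.46% of TIL templates (305) and 0.633% of CX3CR1+ templates (323) in experiment B. In experiment C the largest TCRBV16-01 clone of the TILs held 0.148%.

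Of the largest TCRBV17-01 clones of the CX3CR1+ and TIL libraries, 5 held at least 1%, more than for any of the others. Clones below the largest of a gene in a library were not counted.
TCRBV17-01 with TCRBJ02-02, TILs of experiment A: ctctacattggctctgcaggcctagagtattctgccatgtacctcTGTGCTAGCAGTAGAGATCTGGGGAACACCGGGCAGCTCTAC
TCRBV17-01 with TCRBJ02-02, TILs of experiment B: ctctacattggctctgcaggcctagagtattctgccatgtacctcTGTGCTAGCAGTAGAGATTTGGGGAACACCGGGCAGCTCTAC
TCRBV17-01 with TCRBJ02-01, TILs of experiment C: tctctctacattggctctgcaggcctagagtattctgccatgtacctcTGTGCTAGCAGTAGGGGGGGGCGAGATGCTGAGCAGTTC
TCRBV17-01 with TCRBJ02-02, CX3CR1+ cells of experiment A: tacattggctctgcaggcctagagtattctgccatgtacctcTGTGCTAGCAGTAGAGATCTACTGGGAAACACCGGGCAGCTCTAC
TCRBV17-01 with TCRBJ02-01, CX3CR1+ cells of experiment C: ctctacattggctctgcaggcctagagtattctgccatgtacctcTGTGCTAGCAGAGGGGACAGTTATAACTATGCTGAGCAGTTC
The TIL clone of experiment A held 7.08% of TIL templates (417, interval 6.45% to 7.76%), 79.6% of the gene's templates there, and ranked 2 in the library. In CX3CR1+ cells of that experiment it held 0.348% (194 templates), and it had 0 templates in both CX3CR1- libraries, which allows up to 0.0163% in the CD27lo one. The TIL clone of experiment B held 2.60% (322 templates), with 196 templates in CX3CR1+ cells, 12 in CD27lo and 5 in CD27hi CX3CR1- cells. That of experiment C, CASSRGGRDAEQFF, held 1.88% of TIL and 0.489% of CX3CR1+ templates. The clones of CX3CR1+ cells held 1.36% in experiment A and 1.73% in experiment C. The first of them had 0 of 5893 templates in TILs, which allows up to 0.0509%, and the second had 128 (0.611%).

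The TIL clones of experiments A and B encode the same CDR3, of 15 amino acids, from different nucleotide sequences. A total of 4 nucleotide sequences encoded it with TCRBV17-01 and TCRBJ02-02, all with the whole V end kept and 1 or 2 N bases. The pair not yet shown are the following.
51 templates: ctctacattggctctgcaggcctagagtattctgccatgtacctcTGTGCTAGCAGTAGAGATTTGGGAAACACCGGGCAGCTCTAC
6 templates: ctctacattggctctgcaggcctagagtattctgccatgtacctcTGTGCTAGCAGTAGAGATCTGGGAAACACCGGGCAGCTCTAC
With all 4 joined, this CDR3 was in 11 of 12 libraries, more than any other CDR3 of the 4 genes (it was picked out for that after its values were seen). In TILs it held 7.25% (experiment A), 2.63% (B) and 0.0143% (C) of templates. In CX3CR1+ cells it held 0.470%, 0.388% and 0.0255%, and in CD27hi CX3CR1- cells 0.00741%, 0.0102% and 0.00140%. In CD27lo CX3CR1- cells it held 0.0599% and 0.0660% in A and B, and 0 of 21622 templates in C, which allows up to 0.0139%. Within each experiment CX3CR1+ cells were above both CX3CR1- subsets, and TILs were above CX3CR1+ cells in A and B but not in C, where they had 3 templates. The template count 644 of the sequence from experiment A TILs came from 5 libraries of 2 experiments, and the 577 of that from experiment B TILs from 7 libraries of 2 experiments. A transfer of reads between libraries was not tested.

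**Figure D5:**
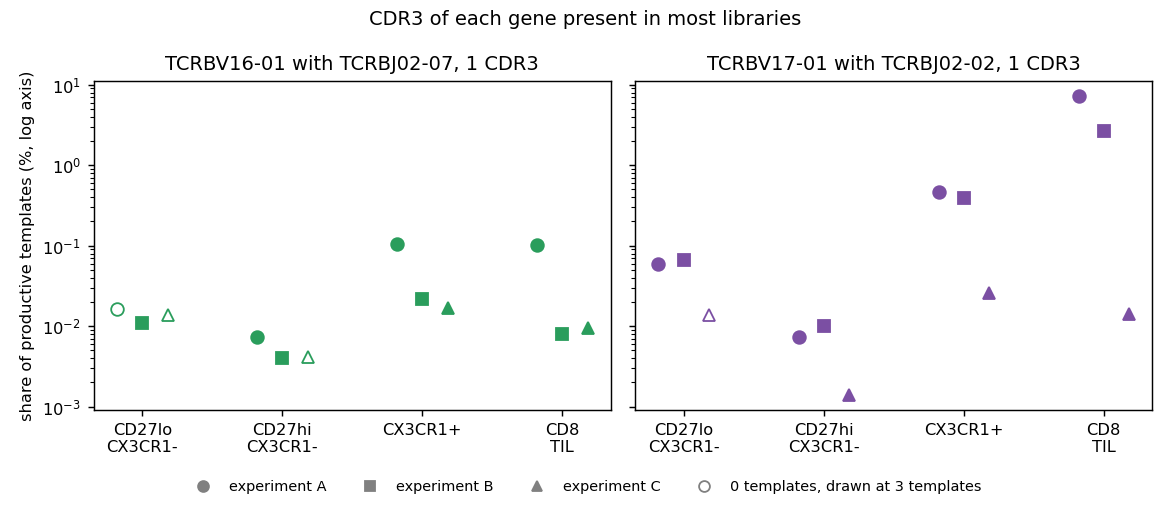
Share of productive templates (%, log axis) of the CDR3 found in most libraries for TCRBV16-01 and TCRBV17-01, by group and experiment. Filled points are measured shares and open points are libraries with 0 templates, drawn at the share of 3 templates. For TCRBV17-01 experiments A and B climb from CD27hi CX3CR1- cells to 7.25% and 2.63% in TILs, and experiment C reaches 0.0255% at most.

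The CDR3 found in most libraries was in fewer of them for the other genes. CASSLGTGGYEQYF of TCRBV16-01 was in 9 libraries and held at most 0.104%, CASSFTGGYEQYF of TCRBV14-01 was in 7 at no more than 0.0275%, and a TCRBV15-01 CDR3 with TCRBJ02-01 was in 7, of which 4 are the libraries of experiment C with the clone shown above and 3 are libraries of 1 other experiment with another nucleotide sequence. CDR3s with the same amino acids, V and J gene in all 3 experiments numbered 136 of 11706 for TCRBV16-01 (1.16%), 53 of 7599 for TCRBV14-01 (0.697%), 40 of 5530 for TCRBV15-01 (0.723%) and 23 of 4824 for TCRBV17-01 (0.477%).

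How much of each gene in the tumor was also found in CX3CR1+ cells of the spleen? For TCRBV17-01, 87.8% (experiment A), 95.4% (B) and 95.6% (C) of TIL templates belonged to rearrangements also present in CX3CR1+ cells. For all other V genes together the values were 59.7%, 85.8% and 85.9%, lower in each experiment. TCRBV14-01 was at 85.9%, 74.8% and 64.5% and TCRBV16-01 at 71.9%, 88.2% and 67.8%. TCRBV15-01 was at 27.03%, 51.8% and 82.4%, below the other V genes in each experiment. By unique rearrangements TCRBV17-01 shared 11 of 34 (32.4%), 20 of 39 (51.3%) and 39 of 61 (63.9%), against 19.6%, 37.9% and 46.2% for the other V genes. TCRBV15-01 shared 20%, 32.1% and 42.3%, which was not below them in experiment A. TIL templates were shared with CX3CR1- cells too. For TCRBV17-01, 5.34%, 50.1% and 62.1% were also found in CD27lo cells and 5.34%, 76.6% and 17.8% in CD27hi cells. For all other V genes these were 42.1%, 52.6% and 62.5%, and 35.4%, 55.5% and 53.7%. These shares match nucleotide sequences. By CDR3 amino acids, TCRBV17-01 was at 85.5%, 52.9% and 62.1% with CD27lo cells and 85.5%, 77.1% and 17.9% with CD27hi cells. All other V genes were then at 46.5%, 56.4% and 68.4%, and 44.1%, 61.7% and 59.3%. In experiment A the order of TCRBV17-01 and the other V genes thus depended on the matching. TCRBV14-01 reached 78.7% with CD27lo cells in experiment A. All these shares depend on how deeply the splenic library was read and on 1 or 2 clones, and were not tested.

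The V genes whose unique productive share moved most like that of each gene over the 12 libraries were TCRBV12-01 (r = 0.77) and TCRBV13-03 (r = 0.75) for TCRBV14-01, and TCRBV20-01 (r = 0.92) and TCRBV26-01 (r = 0.69) for TCRBV15-01. For TCRBV16-01 they were TCRBV30-01 (r = 0.89) and TCRBV04-01 (r = 0.77), and for TCRBV17-01 TCRBV23-01 (r = 0.47) and TCRBV13-03 (r = 0.47). These are Pearson's r of log2 shares, given as a description: libraries of 1 experiment are not independent, and the shallow TIL libraries spread the most.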

How the data were processed

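Rearranged TCRβ genes of 12 genomic DNA libraries were amplified with the ImmunoSEQ assay at survey level and sequenced on a NextSeq500. The deposited count of each rearrangement is a whole number of templates with no normalization, which the authors took from the ImmunoSEQ platform. Reading frame (In, Out, Stop), V and J gene, CDR3 length and trimmed and N bases were used as deposited. V and J genes were assigned on that platform, whose version is not given in the sources used here, and the labels name the build mm10. Gene positions and names are from RefSeq (GRCm38.p6), where all 4 genes matched. No promoter sequence matched.

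V gene counts were tested with edgeR 4.0.16 in R 4.3.3 (quasi-likelihood, library totals without TMM, at least 10 in at least 3 libraries, Benjamini-Hochberg over V genes per contrast, threshold 0.05), with the experiment as a block. The experiment is the unit of replication (n = 3). Libraries were paired by codes shared by the sample titles, which the labels do not explain, after the repeated-measures tests of the study; over 18 pairs of libraries of 1 experiment, deviations from group means correlated by 0.02 on average (-0.57 to 0.62). For In against Out and J partners the libraries of an experiment were joined and each sequence counted once. Other tests were exact permutations within experiments, two-sided. Rearrangements with an unresolved V gene (22) were left out of the totals. Scripts used Python 3.11.15, and the edgeR test was first run on simulated data with known changes.

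The detection floor is 3 templates. Alternatives were TMM, DESeq2 1.42.0, no filter, no block, leaving out each experiment, a minimum of 2 templates, a draw to 5893 templates, CDR3 amino acid clonotypes and others named with their values. J genes named are at most 2 up and 2 down per V gene past the threshold, other V genes named are the 2 most correlated, and clones named are the largest of each gene in each CX3CR1+ and TIL library. The 4 genes, the lists and these rules were chosen with earlier results of these data known. The difference between In and Out in J use, the In to Out ratio of TILs against CX3CR1- cells and the CDR3 in most libraries were added after the data were seen.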

Additional observations from a re-analysis of the deposited data

Results flagged for a closer look

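Single libraries were not tested for standing apart from their group, which held 3 libraries each. For 12 of the 56 pairs of the 4 V genes with J genes, the difference from other V genes was not the same in In and Out rearrangements (edgeR interaction term over 336 pairs, of which 20.2% passed, chosen after the data were seen). The log2 difference in In minus that in Out was -0.73 for TCRBV14-01 with TCRBJ01-02. For TCRBV15-01 it was -1.35 with TCRBJ01-06, -1.09 with TCRBJ01-02, -0.52 with TCRBJ02-05, 0.32 with TCRBJ01-01 and 0.31 with TCRBJ02-07. For TCRBV16-01 it was -1.31 with TCRBJ01-06 and 0.40 with TCRBJ01-04. For TCRBV17-01 it was 0.76 with TCRBJ02-02, -0.63 with TCRBJ01-06, -0.52 with TCRBJ02-04 and -0.47 with TCRBJ01-02. TCRBV14-01 was the only one of the 4 for which TCRBJ01-06 did not differ between In and Out (-0.03, edgeR adjusted p = 0.99).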

How the results depend on the processing

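TCRBV14-01, TCRBV15-01 and TCRBV16-01 kept their direction and call in In against Out under every alternative run. TCRBV17-01 turned to 0.070 with DESeq2 and 0.033 with TMM. In unique productive use none of the 4 was called in the main analysis. TCRBV14-01 in TILs against CX3CR1- cells was called with at least 2 templates (-0.53) and ranged from -0.44 to -0.11 on leaving out each experiment. At equal depth TCRBV15-01 (0.087) and TCRBV16-01 (0.0072) changed sign in CX3CR1+ cells and TCRBV17-01 (-0.036) in TILs. On leaving out each experiment, TCRBV15-01 ranged from -0.10 to 0.021 in CX3CR1+ cells and from -0.11 to 0.27 in TILs, and TCRBV17-01 from -0.041 to 0.050 in TILs. On templates, TCRBV17-01 in TILs was 1.29 by exact permutation (adjusted p = 0.089) and ranged from 1.03 to 1.46 on leaving out each experiment, TCRBV14-01 from -0.93 to 0.066 and TCRBV16-01 from -0.94 to 0.16. Without the largest rearrangements TCRBV14-01 was called lower in TILs (-0.71), and DESeq2 called TCRBV17-01 in CX3CR1+ cells (0.90).

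Counts of V genes called varied. For unique use in CX3CR1+ against CX3CR1- cells (1 in the main analysis) they were 3 with at least 2 templates, 2 with DESeq2, 2 with TMM, 0 at equal depth, 0 without the filter and 0 by permutation, and 0 to 2 on leaving out each experiment. For TILs against CX3CR1- cells (3) they were 0 by permutation and 2 to 7, and for TILs against CX3CR1+ cells (1) 2 with DESeq2, 2 with no replicate block, 0 by permutation and 0 to 3. On templates the CX3CR1+ contrast (0) gave 4 with DESeq2, 1 without the filter, 1 with no replicate block, 2 with TMM, 5 without the largest rearrangements and 0 to 2. The TIL contrast with CX3CR1- cells (4) gave 8 without the largest rearrangements, 0 by permutation and 0 to 5. That with CX3CR1+ cells (1) gave 2 with DESeq2, 0 without the filter, 0 without the largest rearrangements, 0 by permutation and 0 to 4. Out rearrangements gave 1 in TILs against CX3CR1- cells without the filter and 0 to 1 in CD27lo against CD27hi cells. V and J pairs called (139) were 51 in Out rearrangements and 73 to 87 on leaving out each experiment, with fewer samples. In Out, TCRBV15-01 with TCRBJ01-06 was at 0.087, TCRBV15-01 with TCRBJ02-07 at -0.068 and TCRBV17-01 with TCRBJ02-02 at -0.032. The In to Out ratio in CX3CR1+ cells ranged from -0.058 to 0.020 for TCRBV14-01 and from -0.046 to 0.015 for TCRBV15-01. In TILs it ranged from -0.32 to 0.069 for TCRBV17-01, and with no replicate block 6 V genes were called (0 with it), TCRBV14-01 (-0.57) and TCRBV16-01 (-0.31) among them. CDR3 length of TCRBV17-01 was 0.23 bases longer when weighted by templates and ranged from -0.16 to 0.022 bases. The causes were not tested. With no replicate block the call of TCRBV14-01 with TCRBJ02-02 was lost (0.16, edgeR adjusted p = 0.079). TIL libraries, with 34 to 117 unique rearrangements of each gene, limit all comparisons with TILs.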
